A study of Mus musculus with 8 samples.

Results

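Transcript levels of 10 genes that mark the cartilage, joint and bone lineages were examined in cultured mouse embryonic fibroblasts of 4 genotypes. The genes, Sox9, Acan, Comp, Prg4, Gdf5, Runx2, Sp7, Alpl, Ibsp and Spp1, were picked by name for their known roles and make up 10 of the 24972 genes in the authors' table of normalized counts. They were picked with earlier results of these data known, so the shares called among them, set beside all genes, are a description. The fibroblasts were primary cultures from embryos at embryonic day 14, passaged before RNA was taken and given no treatment. The genotypes were wild type (WT), with 1 Tfam allele lost (Tfam+/-), without Zbp1 (Zbp1-/-), and with both changes together (Tfam+/-Zbp1-/-, the double mutant), with 2 RNA sequencing libraries each. The product of Tfam coats mitochondrial DNA and starts its transcription, and that of Zbp1 senses nucleic acids in the cell. The sources used here do not give the strain, the sex or the number of embryos behind a library, so p-values measure the spread between these libraries, which may be technical.

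In the embryo, mesenchymal cells condense and commit to cartilage or bone. The transcription factor SOX9 drives the cartilage program and its matrix genes, while RUNX2 and then SP7 drive the osteoblast program, which ends in the secretion and mineralization of bone matrix. Cells of the future joint instead switch on the secreted factor GDF5, and the joint lining later secretes PRG4, a lubricant of the articular surface. Embryonic fibroblast cultures are mixed mesenchyme of the body wall and limbs, in which cells of these lineages may be present. In bulk RNA of this kind, fewer cells of a type and less RNA per cell cannot be told apart.

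Library totals were 16752835 to 18303036 normalized counts, with 16051 to 16261 genes above 0. Tfam was at 278 to 424 normalized counts in the 4 libraries with the Tfam+/- genotype and at 471 to 675 in the other 4. Zbp1 was at 3.19 and 7.34 in WT and at 1.03 and 3.79 in Zbp1-/-, ranges that overlap, so its level could not check that label. It was at 64.6 and 69.8 in Tfam+/-, 12.8 times the WT mean, and at 0.862 and 2.69 in Tfam+/-Zbp1-/-, below both WT and both Tfam+/- libraries. Fibroblast markers were high throughout, with the 10 fibroblast or mesenchyme markers summing to 500519 to 737087 per library. Tfam+/- and Zbp1-/- varied more between their libraries than the other genotypes did, and same-numbered libraries of these 2 genotypes deviated from their means in opposite directions (r = -0.70 across 13267 genes, which are not independent replicates). Tfam+/- replicate 1 and Zbp1-/- replicate 2 thus deviated together, and so, equally, did Tfam+/- replicate 2 and Zbp1-/- replicate 1. With 2 libraries per genotype, r cannot tell which of these pairs shifted. The former pair was taken as shifted here, and the same fits with the latter were not run. A term shared by Tfam+/- replicate 1 and Zbp1-/- replicate 2 passed the threshold in 8669 of 13267 genes, and the labels name no batch for it. The 2 libraries were picked from these same values, so that count describes the shift and is no separate evidence for it. Results are therefore also given with this term and in the 6 libraries without these 2, where Tfam+/- and Zbp1-/- keep 1 library each, assumed to vary like the others.

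Per kilobase of exon, the 10 genes spanned a wide range of mean levels. Spp1, which encodes the secreted phosphoprotein osteopontin, had 8928 normalized counts per kb and ranked 61 from the top of 17999 genes. Runx2 (71.1 per kb), Sox9 (68.5 per kb) and Prg4 (63.8 per kb) lay near the middle, between the 55.8 and 57.6 percentiles. Comp (18.3 per kb), Gdf5 (10.3 per kb) and Acan (4.62 per kb) lay lower, and Sp7 (2.62 per kb), Alpl (1.92 per kb) and Ibsp (1.18 per kb) lay lowest, at the 25.8, 23.8 and 20.7 percentiles. The cultures thus held transcripts of the early factors of both lineages, Sox9 and Runx2, and low levels of the later osteoblast genes Sp7, Alpl and Ibsp. Genes were tested where the mean over the 8 libraries was at least 10 normalized counts. That left Sp7 (mean 8.90), Alpl (7.74) and Ibsp (2.45) out, so 7 of the 10 genes were tested.

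**Figure D1:**
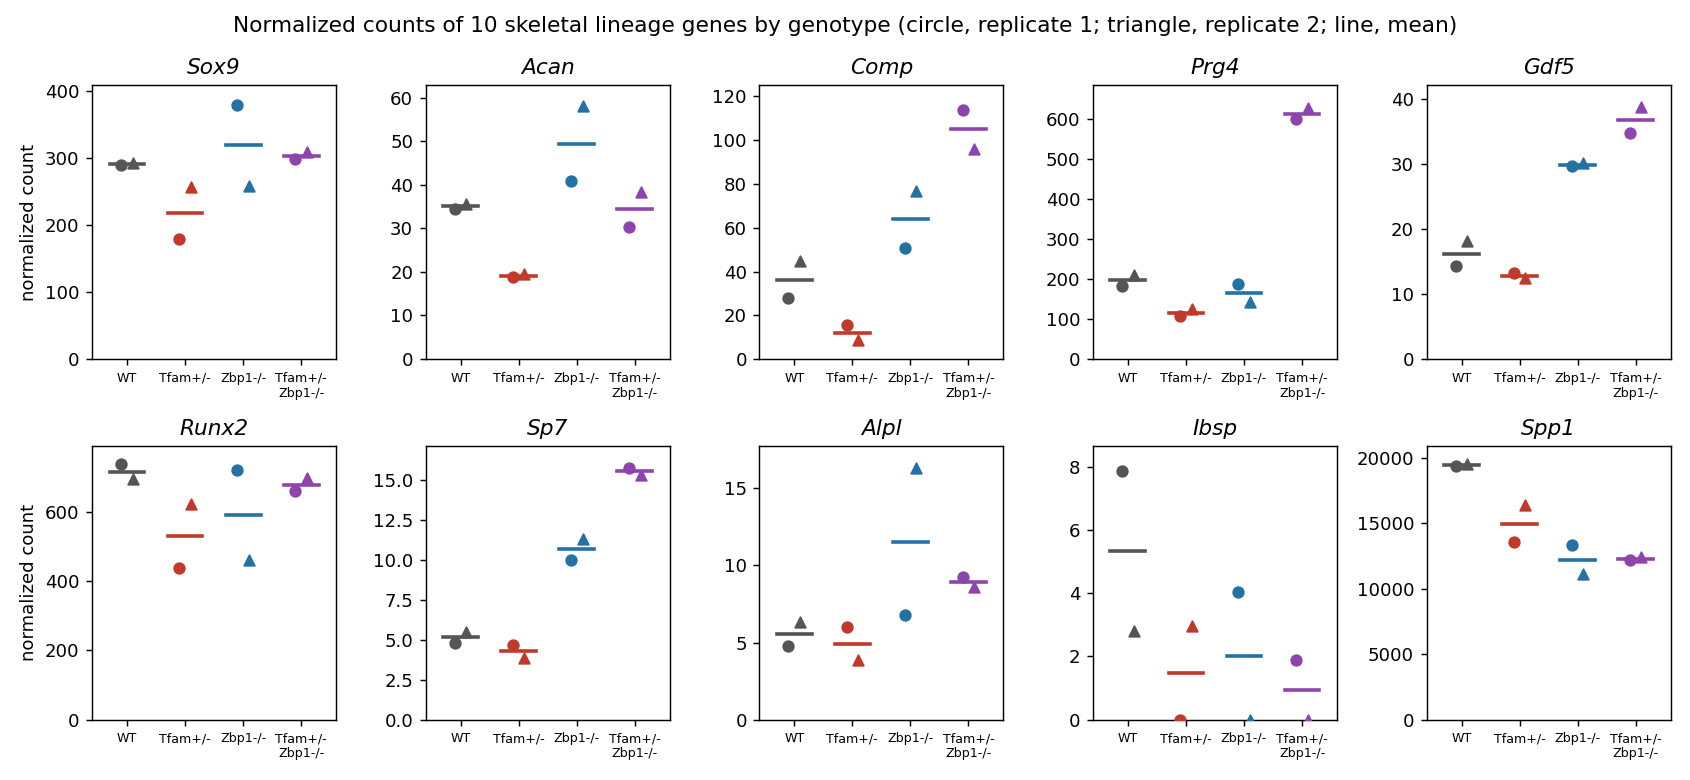
Normalized counts (vertical axes, linear, from 0) of the 10 genes in each of the 8 libraries, by genotype on the horizontal axes, with circles for replicate 1, triangles for replicate 2 and lines for the mean of the 2. Prg4 in Tfam+/-Zbp1-/- (600.2 and 627) lies above the other 6 libraries (106 to 211), and Spp1 in WT (19343 and 19490) lies above all mutant libraries.

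Tests used limma on log2(normalized count + 1), with the 4 genotypes fitted together, two-sided p-values adjusted by Benjamini and Hochberg over 13267 genes, and a threshold of 0.05. Changes below are log2 changes on that scale with their standard errors, and they understate the change of low genes. In Tfam+/-Zbp1-/- against Tfam+/-, 3 of the 7 tested genes rose (Comp, Prg4 and Gdf5) and none fell. Over all tested genes, 5.64% were called in this comparison. In Tfam+/-Zbp1-/- against WT only Prg4 passed, 1 of 7 beside 1.38% of all genes. Prg4 was also the 1 of 7 that passed in Tfam+/-Zbp1-/- against Zbp1-/- (0.415% of all genes) and in the interaction (0.663%). The interaction subtracts the effect of the Tfam+/- genotype with Zbp1 present from its effect with Zbp1 lacking. By limma, 0 of 7 were called in Tfam+/- against WT (0.731% of all genes), with 4 at an unadjusted p under 0.05. Likewise 0 of 7 were called in Zbp1-/- against WT (1.06%), with 2 at an unadjusted p under 0.05. The comparisons share libraries and are not independent of each other.

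**Figure D2:**
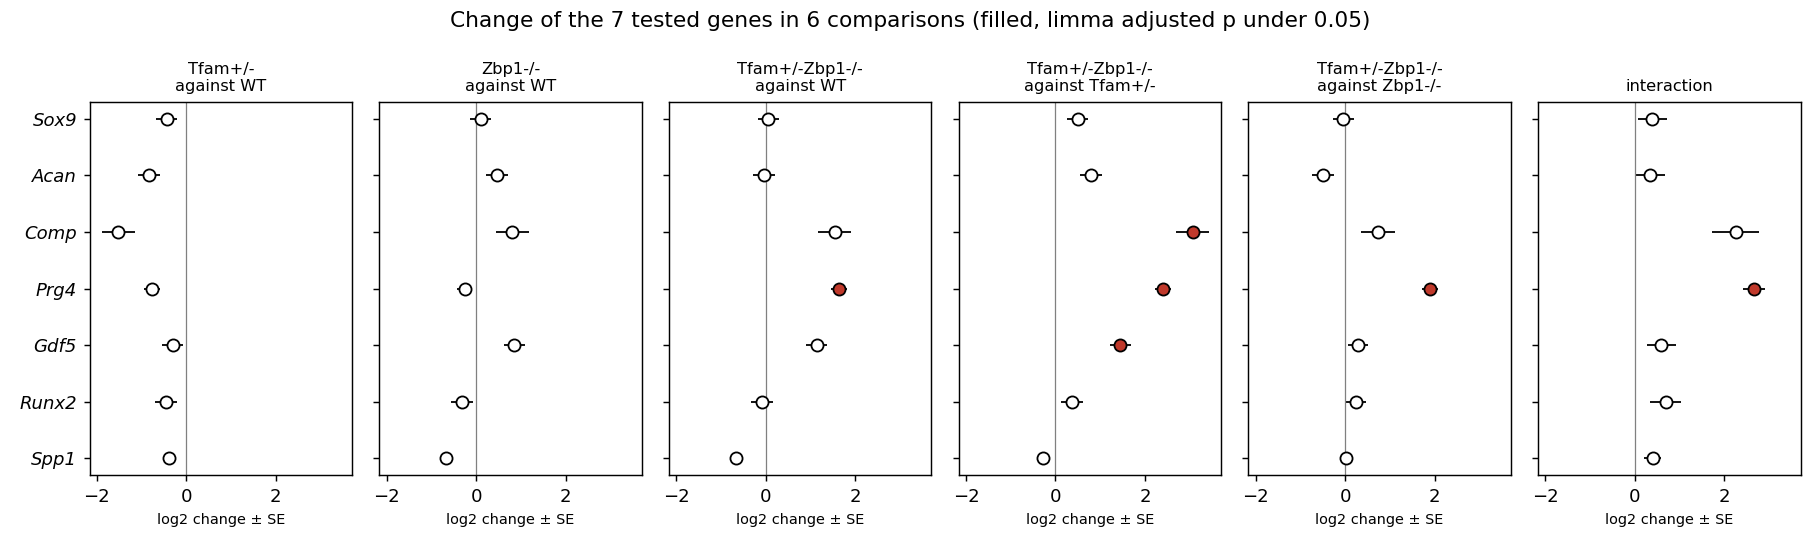
Log2 change with its standard error (horizontal axes) of the 7 tested genes in each of the 6 comparisons, with filled points where the limma adjusted p was under 0.05. Filled points are Prg4 in 4 comparisons, and Comp and Gdf5 in Tfam+/-Zbp1-/- against Tfam+/-.

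Of the joint genes, Prg4 changed most widely across genotypes. Prg4 (chromosome 1, 150449412 to 150466221, mm10) encodes lubricin, the boundary lubricant secreted by synovial cells and superficial chondrocytes. The WT libraries held 182 and 211 normalized counts, the Tfam+/- libraries 106 and 125, the Zbp1-/- libraries 188 and 144 and the double mutant libraries 600.2 and 627. Both double mutant libraries were above all others, both Tfam+/- libraries were below all others, and WT and Zbp1-/- overlapped. How often libraries separated by genotype in such ways over all genes was not counted. Here and below, such orders describe the values and are no result about these genes. The double mutant mean, 613 ± 18.8 (SD, n = 2), was 3.12 times that of WT, 3.70 times that of Zbp1-/- and 5.30 times that of Tfam+/-. Prg4 rose in Tfam+/-Zbp1-/- by 1.64 ± 0.17 against WT (limma, adjusted p 0.0174), by 1.90 ± 0.17 against Zbp1-/- (limma, adjusted p 0.0294) and by 2.40 ± 0.17 against Tfam+/- (limma, adjusted p 0.00251).

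The effect of the Tfam+/- genotype on Prg4 thus had opposite signs in the 2 Zbp1 backgrounds. It was -0.76 ± 0.17 in Tfam+/- against WT, which did not pass (limma, adjusted p 0.19), and 1.90 where Zbp1 was lacking. The difference between these effects, the interaction, was 2.66 ± 0.25 (limma, adjusted p 0.0187). Prg4 in Zbp1-/- against WT was at -0.26. The sizes moved little when 1 library was left out, but the calls did. In several of these fits calls were lost across all tested genes. A lost call, here and below, is thus not by itself a trait of the gene named. Against Tfam+/-, the change was 2.28 to 2.51 and lost its call without either Tfam+/-Zbp1-/- library (adjusted p up to 0.0533). Against WT it was 1.53 to 1.74 and lost its call without either WT or either double mutant library (adjusted p up to 0.265). Against Zbp1-/- it was 1.70 to 2.09 and kept its call only without Tfam+/- replicate 1 or replicate 2, and the interaction, 2.46 to 2.85, kept its call only without either Tfam+/- library or Zbp1-/- replicate 1.

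Gdf5 (chromosome 2, 155941023 to 155945367) encodes a ligand of the BMP family that marks the interzone of the forming joint. In the WT libraries Gdf5 stood at 14.3 and 18.1 normalized counts, against 13.2 and 12.5 in those of Tfam+/-, 29.7 and 30.2 in those of Zbp1-/- and 34.8 and 38.9 in those of Tfam+/-Zbp1-/-. All 4 libraries lacking Zbp1 were above all 4 others, and no neighbouring genotypes overlapped in the order Tfam+/-, WT, Zbp1-/- and Tfam+/-Zbp1-/-. Gdf5 rose by 1.45 ± 0.23 in Tfam+/-Zbp1-/- against Tfam+/- (limma, adjusted p 0.0167), a ratio of means of 2.87. That call was lost without Tfam+/- replicate 1 or either double mutant library, at 1.37 to 1.53 over all 8 fits that leave out a library. Against WT the changes were 0.85 ± 0.23 in Zbp1-/- (limma, adjusted p 0.146) and 1.14 ± 0.23 in Tfam+/-Zbp1-/- (limma, adjusted p 0.0747), and neither passed.

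Of the cartilage genes, only Comp was called. Comp (chromosome 8, 70373548 to 70382066) encodes cartilage oligomeric matrix protein, a glycoprotein that binds collagen in cartilage and tendon. Normalized counts of Comp were 27.7 and 44.7 for WT, 15.5 and 8.64 for Tfam+/-, 50.7 and 77.0 for Zbp1-/- and 114 and 96.1 for the double mutant. No genotypes overlapped, and their order, Tfam+/-, WT, Zbp1-/- and Tfam+/-Zbp1-/-, was that of Gdf5. The double mutant mean was 8.70 times the Tfam+/- mean, a rise of 3.07 ± 0.37 (limma, adjusted p 0.00658). The call was lost without either double mutant library (adjusted p up to 0.0844), at 2.68 to 3.46 over the 8 fits. The other changes of Comp were -1.52 ± 0.37 for Tfam+/- (limma, adjusted p 0.23), 0.81 ± 0.37 for Zbp1-/- (limma, adjusted p 0.28) and 1.54 ± 0.37 for Tfam+/-Zbp1-/- (limma, adjusted p 0.12), each against WT. Its interaction, 2.26 ± 0.52, did not pass (limma, adjusted p 0.132).

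Sox9 (chromosome 11, 112782210 to 112787757), the master transcription factor of chondrocytes, was called in 0 of 6 comparisons. The WT libraries held 289 and 294 normalized counts, the Tfam+/- libraries 179 and 257, the Zbp1-/- libraries 380 and 258 and the double mutant libraries 298 and 309. The Tfam+/- libraries were below all others, and the Zbp1-/- libraries spanned WT and Tfam+/-Zbp1-/-. The change in Tfam+/- against WT was -0.44 ± 0.23 (limma, adjusted p 0.56). Against WT, Zbp1-/- was at 0.10 and Tfam+/-Zbp1-/- at 0.06, and rescaling by trimmed means of M-values turned these to -0.01 and -0.06.

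Acan (chromosome 7, 79053226 to 79115099) encodes aggrecan, the large proteoglycan of cartilage, and is a known target of SOX9. In the WT libraries Acan stood at 34.4 and 35.6 normalized counts, against 18.9 and 19.4 in those of Tfam+/-, 40.8 and 58.0 in those of Zbp1-/- and 30.4 and 38.3 in those of Tfam+/-Zbp1-/-. As for Sox9, Comp, Prg4 and Gdf5, both Tfam+/- libraries were the lowest of the 8. For Sox9 the gap was only 257.4 to 258.2. How often this order held over all genes was not counted, so it is no result about these genes. The Tfam+/- mean was 0.547 times that of WT, a change of -0.84 ± 0.24 that did not pass (limma, adjusted p 0.34). Nor did the change of 0.80 ± 0.24 in Tfam+/-Zbp1-/- against Tfam+/- (limma, adjusted p 0.12).

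The bone genes are known to act in sequence, and RefSeq promoter windows of 3 of them are printed to show their sequence beside their levels. The windows run from 250 bases before to 50 after the annotated start on GRCm38.p6 (mm10), and 5 of the 10 genes were matched (Acan, Runx2, Alpl, Ibsp and Spp1, with 7 windows). Spp1 and Ibsp are shown because they lie close together on chromosome 5, with the gene Mepe between them, and differ most in level, and Runx2 because it encodes a factor that binds the core searched. Capitals mark matches to TGTGGT (the core bound by RUNX factors), ACAAAG or ACAATG (cores bound by SOX factors), or TATAAA, on either strand. A match on the reverse strand reads as the reverse complement. Spp1 has a further window (chr5:104435942-104436241), from a later start, which is not printed.
Spp1 (chr5:104434861-104435160, + strand): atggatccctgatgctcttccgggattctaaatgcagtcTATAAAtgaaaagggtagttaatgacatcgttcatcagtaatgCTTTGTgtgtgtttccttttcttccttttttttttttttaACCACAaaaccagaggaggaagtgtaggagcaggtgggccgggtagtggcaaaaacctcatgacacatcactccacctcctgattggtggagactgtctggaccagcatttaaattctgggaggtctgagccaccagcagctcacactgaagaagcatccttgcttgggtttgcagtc
Ibsp (chr5:104299037-104299336, + strand): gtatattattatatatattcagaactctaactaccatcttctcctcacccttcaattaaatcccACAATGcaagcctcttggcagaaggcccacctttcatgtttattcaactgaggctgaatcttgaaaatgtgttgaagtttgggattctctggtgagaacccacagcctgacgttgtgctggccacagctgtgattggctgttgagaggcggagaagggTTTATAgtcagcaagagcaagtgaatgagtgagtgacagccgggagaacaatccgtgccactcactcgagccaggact
Runx2 (chr17:44814578-44814877, - strand): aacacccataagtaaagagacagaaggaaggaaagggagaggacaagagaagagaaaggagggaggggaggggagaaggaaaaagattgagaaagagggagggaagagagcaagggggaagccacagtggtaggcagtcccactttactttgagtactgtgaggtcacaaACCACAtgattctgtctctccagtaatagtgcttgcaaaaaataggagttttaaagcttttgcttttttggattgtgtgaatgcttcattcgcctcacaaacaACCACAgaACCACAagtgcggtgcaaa
In the Runx2 window TGTGGT matched 3 times on the reverse strand, with first bases at -80, 24 and 32 from the start. The printed Spp1 window held 1 such match, at -128 on the reverse strand, with ACAAAG at -168 on the reverse strand and TATAAA at -211. The later Spp1 window held ACAAAG at -243 on the reverse strand and no TGTGGT, and the windows of Ibsp, Acan and Alpl held no TGTGGT. In the Ibsp window ACAATG was at -186 and TATAAA at -28 on the reverse strand. Of 32817 promoter windows of this length, 16.8% held TGTGGT, 18.7% ACAAAG, 12.6% ACAATG and 13.6% TATAAA, so each match is common and describes these letters only.

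Runx2 (chromosome 17, 44495987 to 44814797), needed for osteoblasts to form, was called in 0 of 6 comparisons. Normalized counts of Runx2 were 737 and 693 for WT, 437 and 622 for Tfam+/-, 719 and 461 for Zbp1-/- and 659 and 695 for the double mutant. The lowest values, 437 and 461, were those of Tfam+/- replicate 1 and Zbp1-/- replicate 2, the libraries given the shared term. Each neighbouring pair of genotypes overlapped in the order of the means, but both Tfam+/- libraries were below those of WT and of the double mutant. The change in Tfam+/- against WT was -0.45 ± 0.24 (limma, adjusted p 0.56), and it was -0.20 without Tfam+/- replicate 1. In Zbp1-/- against WT it was -0.31, and 0.0074 without Zbp1-/- replicate 2.

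Sp7 (chromosome 15, 102356603 to 102367035) encodes osterix, which acts after RUNX2 in osteoblasts. The WT libraries held 4.82 and 5.51 normalized counts, the Tfam+/- libraries 4.67 and 3.87, the Zbp1-/- libraries 9.99 and 11.3 and the double mutant libraries 15.7 and 15.3. The genotypes did not overlap, and their order was that of Comp and Gdf5, with all 4 libraries lacking Zbp1 above the other 4. The share of all genes with this order was not counted. Its mean of 8.90 kept it out of the tested genes. In a fit with no filter it rose by 1.65 ± 0.28 in Tfam+/-Zbp1-/- against Tfam+/- (limma, adjusted p 0.0288). In that fit 4 of the 10 genes were called in this comparison, beside 3.55% of all genes. Sp7 did not pass there against WT, at 1.42 in Tfam+/-Zbp1-/- (limma, adjusted p 0.0928) and 0.92 in Zbp1-/- (limma, adjusted p 0.21).

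Alpl (chromosome 4, 137741731 to 137796384) encodes tissue-nonspecific alkaline phosphatase, an early osteoblast enzyme that frees phosphate for mineral. In the WT libraries Alpl stood at 4.78 and 6.36 normalized counts, against 5.98 and 3.85 in those of Tfam+/-, 6.78 and 16.3 in those of Zbp1-/- and 9.26 and 8.63 in those of Tfam+/-Zbp1-/-. The 4 libraries lacking Zbp1 were above the other 4, but the gap was only 6.36 to 6.78, and the higher Zbp1-/- mean rested on replicate 2. Without a filter the change in Zbp1-/- against WT was 0.83 (limma, adjusted p 0.39).

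Ibsp (chromosome 5, 104299287 to 104311472) encodes bone sialoprotein, a matrix protein of mineralizing bone. Normalized counts of Ibsp were 7.86 and 2.81 for WT, 0 and 2.97 for Tfam+/-, 4.04 and 0 for Zbp1-/- and 1.90 and 0 for the double mutant. Each neighbouring pair of genotypes overlapped, and 3 of the 8 libraries were listed at 0. Both double mutant libraries were below both WT libraries, but values this near 0 cannot decide whether genotypes differed.

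Spp1 (chromosome 5, 104435111 to 104441053) lies 123638 bases beyond Ibsp on the same strand, yet its mean level per kb was 7549 times that of Ibsp. Its product, osteopontin, is a matrix protein of bone that fibroblasts, macrophages and osteoclasts also make. The WT libraries held 19343 and 19490 normalized counts, the Tfam+/- libraries 13579 and 16352, the Zbp1-/- libraries 13303 and 11092 and the double mutant libraries 12149 and 12394. All 6 mutant libraries were below both WT libraries, Tfam+/- lay next, and Zbp1-/- and Tfam+/-Zbp1-/- overlapped. Unlike the cartilage and joint genes, Spp1 was not lowest in Tfam+/-.

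Spp1 came close to the threshold against WT without passing it. The change was -0.68 ± 0.13 in Zbp1-/- (limma, adjusted p 0.073), -0.66 ± 0.13 in Tfam+/-Zbp1-/- (limma, adjusted p 0.0688) and -0.38 ± 0.13 in Tfam+/- (limma, adjusted p 0.45). Under that rescaling, the change in Tfam+/-Zbp1-/- was -0.78 and passed (limma, adjusted p 0.0454), so that comparison then had 1 of the 7 genes higher and 1 lower. Leaving out Tfam+/- replicate 1 or replicate 2, which are not in these comparisons, also brought both changes past the threshold, with adjusted p of 0.0457 and 0.0436 in Tfam+/-Zbp1-/- and of 0.0487 and 0.0467 in Zbp1-/-.

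The sum of macrophage markers, like Spp1, was below WT in the genotypes lacking Zbp1, but it was above WT in Tfam+/-. The 12 macrophage or leukocyte markers, all with a mean of at least 10, summed to 5783 to 5803 normalized counts for WT, 6767 to 7861 for Tfam+/-, 3700 to 3810 for Zbp1-/- and 2964 to 2979 for the double mutant. Csf1r, the receptor that defines the macrophage lineage, was at 237 to 702. Lyz2, at 1375 to 3445, was the largest part of the sum. Not every marker followed the sum. Cd14 was at 125 and 150 in Zbp1-/- and at 101 and 112 in WT. In Tfam+/- replicate 1, Ptprc (96.6) and Mrc1 (270) were below both WT libraries. The sum was lower in the double mutant than in Zbp1-/-, while Spp1 overlapped between them. In Tfam+/-, where the sum was above that of WT, Spp1 was below WT. The part of macrophages in the Spp1 level was not tested. Of the 9 osteoclast markers, 4 had a mean of at least 10, and Dcstamp, Ocstamp and Calcr were at 1.10 or less in every library. The osteoclast sum, 1848 to 2958, was mostly Ctsk (1271 to 2388), which fibroblasts express too.

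**Figure D3:**
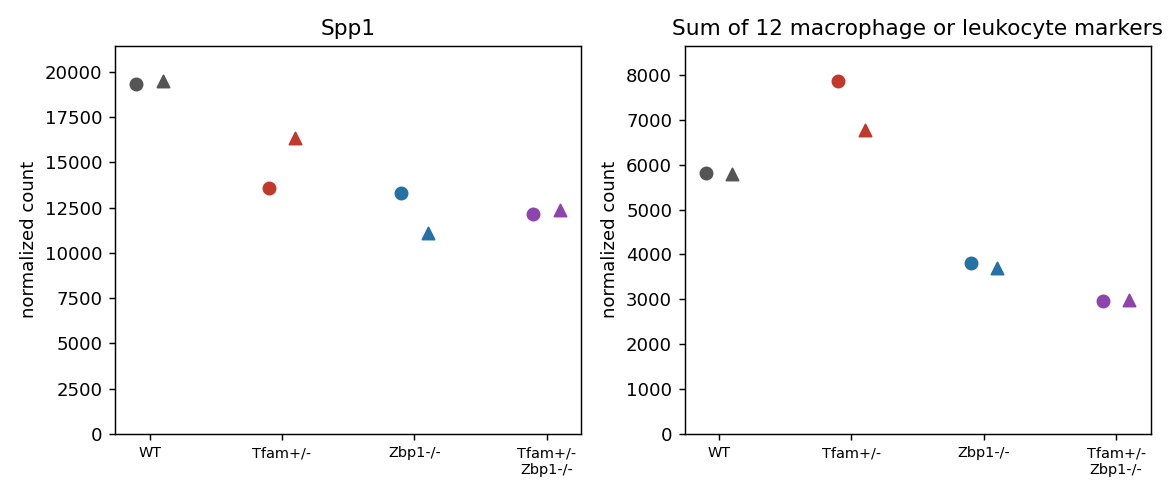
Normalized counts (vertical axes, linear, from 0) of Spp1 and of the summed macrophage or leukocyte markers in each library by genotype, with circles for replicate 1 and triangles for replicate 2. Spp1 is highest in WT (19343 and 19490), while the marker sum is highest in Tfam+/- (6767 and 7861).

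Summed markers of other cell types also differed between genotypes, and their part in the results was not tested. The 8 Schwann or neural crest markers, 7 of which had a mean of at least 10, summed to 391 to 441 for WT, 290 to 350 for Tfam+/-, 785 to 797 for Zbp1-/- and 257 to 286 for the double mutant. The skeletal muscle markers, 2 of 10 with a mean of at least 10, summed to 1058 to 1096 for WT, 1244 to 1771 for Tfam+/-, 664 to 935 for Zbp1-/- and 607 to 626 for the double mutant. The muscle sum was almost wholly Des and Acta1, while Myod1, Myog, Myf5, Myf6 and Ckm, which define muscle cells, were at 2.76 or less in every library. From lowest to highest, the muscle and macrophage sums both ran Tfam+/-Zbp1-/-, Zbp1-/-, WT and Tfam+/-. Comp, Gdf5 and Sp7 had the reverse order, and the rest of the 10 genes did not. How many of all genes had either order was not counted. The Schwann sum was lowest in Tfam+/-Zbp1-/- and highest in Zbp1-/-. Endothelial markers summed to 273 to 461 (3 of 6 with a mean of at least 10). Epithelial markers summed to 185 to 490, with 3 of 6 at a mean of at least 10 and 1 at 0 in all libraries. The fibroblast sum was 534970 to 536536 for WT, 500519 to 605784 for Tfam+/-, 629360 to 737087 for Zbp1-/- and 567142 to 574248 for the double mutant.

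With the term shared by Tfam+/- replicate 1 and Zbp1-/- replicate 2, more of the 7 genes were called, as were more of all genes. Values that involve Tfam+/- or Zbp1-/- depend on taking this pair as the shifted one. No such fit was run with the other libraries of these genotypes. In Tfam+/- against WT, 4 of 7 fell (15.6% of all genes were called): Acan at -0.95, Comp at -1.87, Prg4 at -0.61 and Spp1 at -0.25. In Zbp1-/- against WT 2 of 7 were called (35.6%), Sox9 at 0.37 and Spp1 at -0.54. In Tfam+/-Zbp1-/- against WT 4 of 7 were called (42.5%), with Comp at 1.54, Prg4 at 1.64 and Gdf5 at 1.14 above, and Spp1 at -0.66 below. Against Tfam+/-, 5 of 7 were called (45.6%), Acan at 0.92, Comp at 3.41, Prg4 at 2.25, Gdf5 at 1.47 and Spp1 at -0.41. Against Zbp1-/-, 4 of 7 were called (23.8%), Sox9 at -0.31, Comp at 1.08, Prg4 at 1.74 and Spp1 at -0.12. In the interaction 3 of 7 were called (16.9%), Comp at 2.94, Prg4 at 2.35 and Spp1 at 0.13. Runx2 was called in 0 of these 6 fits. The term leaves the interaction resting on the other 6 libraries, so the 6-library fit gives the same interaction values by construction. In both fits Prg4 was called in the 4 comparisons in which all 8 libraries called it, and Comp and Gdf5 in Tfam+/-Zbp1-/- against Tfam+/-.

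**Figure D4:**
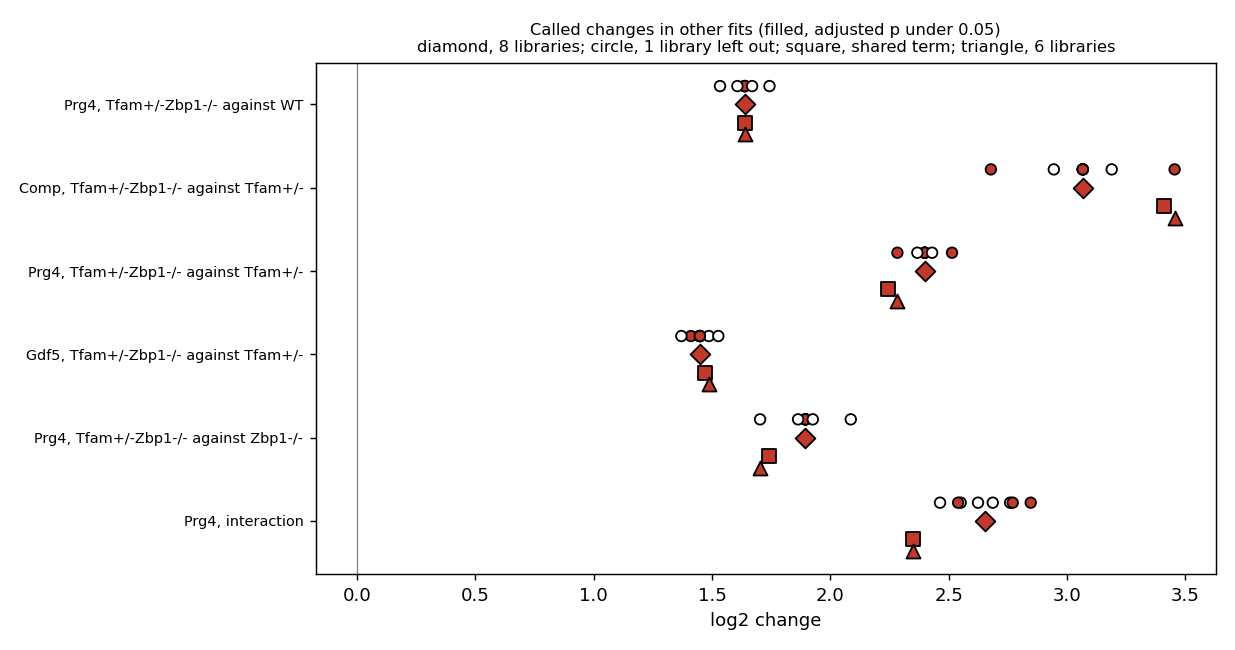
Log2 change (horizontal axis) of the 6 changes called from all 8 libraries (diamonds), with 1 library left out (circles), with the shared term (squares) and in 6 libraries (triangles), filled where the limma adjusted p was under 0.05. The lowest value is 1.37, for Gdf5, and open circles show calls lost when 1 library is left out.

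The median log2 change of the 7 genes differed most from that of all tested genes in Tfam+/-Zbp1-/- against Tfam+/-, in the interaction and in Tfam+/- against WT. It was -0.45 in Tfam+/- against WT (all genes -0.01) and 0.80 in Tfam+/-Zbp1-/- against Tfam+/- (all genes 0.14). It was 0.10 in Zbp1-/- against WT (all genes 0.11) and 0.06 in Tfam+/-Zbp1-/- against WT (all genes 0.12). Against Zbp1-/- it was 0.23 (all genes 0.02), and in the interaction 0.60 (all genes 0.00). These medians are a description and carry no test. The same rescaling moved the median of all genes by over 0.1 in the 3 comparisons of genotypes lacking Zbp1 with genotypes carrying it, to -0.01, 0.00 and 0.03.

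Over the 8 libraries the genes did not form a single pattern. Comp and Gdf5 followed each other most closely (r = 0.93), then Sox9 and Runx2 (r = 0.82), while Comp and Prg4 were at r = 0.77 and Gdf5 and Spp1 at r = -0.71. These are correlations of log2 values over 8 libraries that share genotypes, given as a description. The 3 other genes most like Gdf5 by Pearson r among the 13267 tested were Npnt (0.990), Sfrp2 (0.987) and A4galt (0.987). For Prg4 they were Cftr (0.990), Lsm6 (0.990) and Hmgn3 (0.982), and for Comp they were Hs6st1 (0.989), Kank1 (0.986) and Cdk5rap2 (0.978). Cftr, a chloride channel gene, was at 33.7 and 40.3 in Tfam+/-Zbp1-/- and at 7.75 to 14.8 in the other 6 libraries.

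Wider lists of the same pathways were then counted, leaving out the 10 genes themselves. Like the 10 genes, the lists were chosen with earlier results of these data known. Their shares called beside those of all genes are thus a description and carry no test. The cartilage list had 17 tested genes of 28 in the table, the joint and tendon list 22 of 22, the bone list 24 of 33, and a list of BMP, hedgehog and WNT signals 33 of 35. The genes left out for low levels included the hypertrophic regulator Ihh and the cartilage matrix gene Matn1, and on the bone list Bglap, Dmp1 and Sost, which mark mature osteoblasts and osteocytes. Matn1, Sost and Mepe were listed at 0 in all 8 libraries.

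In Tfam+/-Zbp1-/- against Tfam+/-, 7 of 17 cartilage genes rose and none fell, or 41.2% called beside 5.64% of all tested genes. The list median was 1.33 and that of all tested genes 0.14. Col10a1, the collagen of hypertrophic cartilage, was at 284 and 304 normalized counts in Tfam+/- and at 1341 and 1295 in Tfam+/-Zbp1-/-, a rise of 2.16 (limma, adjusted p 7.1e-04). Hapln1, which links aggrecan to hyaluronan, rose by 2.67 (limma, adjusted p 0.0248) and Matn4, a matrilin, by 2.19 (limma, adjusted p 0.0198). The other 4 were Sox6, Fgfr3, Col9a1 and Col9a2, at 1.50 to 1.82. Of the 17, only the collagen genes Col2a1 and Col11a2 had negative changes, and neither was called. Col2a1 was at -0.52 (limma, adjusted p 0.24) and Col11a2 at -0.28 (limma, adjusted p 0.56). Both double mutant libraries held less Col2a1 (572 and 544 normalized counts) than every library of another genotype (654 to 1591). Col9a1 had a mean of 10.4 normalized counts, past the minimum of 10 only through its double mutant libraries (13.2 and 19.6). Its call is thus no support for the count of 7. With libraries rescaled, 6 of the 17 rose, and 5.51% of all genes were called.

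On the joint and tendon list 6 of 22 rose and 2 fell in that comparison, or 36.4% called beside 5.64% of all genes (median 0.47 beside 0.14). Erg, a transcription factor of developing joints, rose by 2.23 (limma, adjusted p 0.0025), Sfrp2, a secreted WNT modulator, by 2.04 (limma, adjusted p 9.0e-04) and Osr2, a factor of joint formation, by 1.80 (limma, adjusted p 0.0044). The other 3 were Thbs4, Fmod and Dkk3. Tnc, the matrix glycoprotein tenascin C, fell by 0.73 and Gdf6, a close relative of Gdf5, fell by 0.94, so the 2 related ligands moved in opposite directions. On the bone list 4 of 24 rose and none fell, or 16.7% (median 0.35). These were Msx1, a mesenchymal homeobox factor (1.97, limma adjusted p 0.0048), Enpp1, which makes the mineralization inhibitor pyrophosphate (1.48, limma adjusted p 0.0025), Twist1, which restrains RUNX2 (0.91, limma adjusted p 0.0099), and Mgp, an inhibitor of calcification (0.87, limma adjusted p 0.0117).

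Of the 33 signal genes 8 rose and none fell, or 24.2% called beside 5.64% of all genes (median 0.67 beside 0.14). They included the ligands Bmp4 (1.63, limma adjusted p 0.0017) and Bmp2 (1.50, limma adjusted p 0.0229), Axin2, a target of WNT signalling (1.55, limma adjusted p 0.0171), and the BMP antagonist Nog (1.33). Id2, Smad6 and Smad9, of the BMP pathway, and Ptch1, the hedgehog receptor, were at 0.78 to 1.13. After rescaling 4 joint and tendon genes, 4 bone genes and 6 signal genes rose, 2 joint and tendon genes fell, and 5.51% of all genes were called. Of the 12 genes named with an adjusted p on these 4 lists, other than Mgp, Col10a1 and Sfrp2 kept their calls in each of the 8 fits that leave out a library. Bmp4 lost its call without Tfam+/-Zbp1-/- replicate 2, and the other 9 lost it without either double mutant library, where nearly all called genes lost theirs. Hapln1 also lost it without either WT library, Matn4 without Tfam+/- replicate 2 and Bmp2 without either Tfam+/- library.

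In Tfam+/- against WT, 1 gene of each list passed, or 3.03% to 5.88% of a list beside 0.731% of all genes. Col10a1 (-0.68, limma adjusted p 0.0459), Erg (-1.17, limma adjusted p 0.0417) and Enpp1 (-0.84, limma adjusted p 0.0394) fell, while Sostdc1, a secreted BMP and WNT antagonist, rose by 1.98 (limma, adjusted p 0.0118). The cartilage list had a median of -0.68 beside -0.01 for all genes. All 4 calls were lost without either WT or either Tfam+/-Zbp1-/- library, where most calls over all tested genes were lost too. That of Sostdc1 was also lost without Tfam+/- replicate 2, that of Enpp1 without Tfam+/- replicate 1 and that of Erg without either. That of Col10a1 was lost in each of the 8 fits that leave out a library.

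In Zbp1-/- against WT, 1 cartilage gene (Col10a1, 0.81), 4 joint and tendon genes, 0 bone genes and 2 signal genes rose by limma, and none fell, beside 1.06% of all genes called. The joint and tendon genes were Osr2 (2.06), Sfrp2 (1.44), Wnt4, a ligand of the joint interzone (1.01), and Dkk3 (0.55), and the signal genes were Sostdc1 (2.62) and Bmp4 (0.96). In Tfam+/-Zbp1-/- against WT, Col10a1 (1.48), Osr2 (2.13), Sfrp2 (1.81), Erg (1.05), Msx1 (1.79), Sostdc1 (2.81), Axin2 (1.60) and Bmp4 (1.00) rose and none fell, beside 1.38% of all genes called. These calls were lost without either WT or either Tfam+/-Zbp1-/- library, as were nearly all calls over the tested genes. For Dkk3 this was not run. In Zbp1-/- against WT, Col10a1, Wnt4 and Bmp4 were also lost without either Zbp1-/- library, and Osr2 without replicate 2. After rescaling, 2 joint and tendon genes were called in each of these 2 comparisons, beside 0.611% and 1.43% of all genes. The list medians for joint and tendon genes (0.08) and signal genes (0.11) in Zbp1-/- against WT, and for bone genes in Tfam+/-Zbp1-/- against WT (0.11), moved to -0.04, -0.01 and -0.00 with that scaling.

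Sostdc1 was at 8.18 and 7.80 normalized counts in WT and at 32.5 to 62.9 in all 6 mutant libraries. Enpp1, like Prg4, was lowest in Tfam+/- and highest in Tfam+/-Zbp1-/-, at 703 and 681 for WT, 357 and 416 for Tfam+/-, 524 and 477 for Zbp1-/- and 1074 and 1075 for the double mutant. It was the 1 list gene called in Tfam+/-Zbp1-/- against Zbp1-/- (1.10, limma adjusted p 0.0351), where 0.415% of all genes were called, and it kept that call only without Tfam+/- replicate 1 or replicate 2. Its interaction was 1.94 (limma, adjusted p 0.0179). The interaction was also called for Col10a1 (1.35), Erg (1.81) and Thbs4, a tendon matrix gene (2.09), and, in the opposite direction, for Tnc (-1.02), beside 0.663% of all genes. Without either WT library, either double mutant library or Zbp1-/- replicate 2, none of these 5 interactions was called, nor was that of any other tested gene. Those of Tnc and Erg were also lost without Tfam+/- replicate 1, that of Erg without Zbp1-/- replicate 1, and that of Thbs4 in each of the 8 fits.

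**Figure D5:**
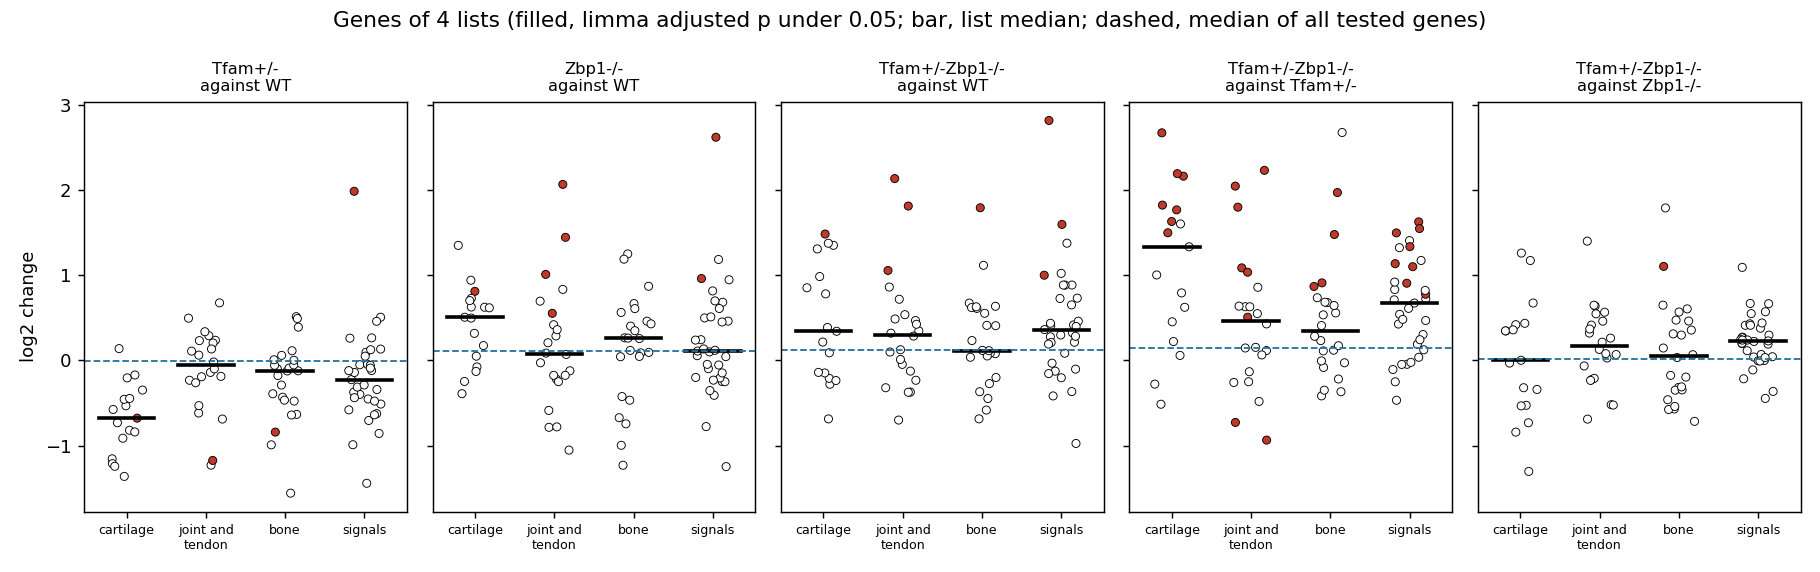
Log2 change (vertical axis) of each tested gene of the cartilage, joint and tendon, bone and signal lists in 5 comparisons, filled where the limma adjusted p was under 0.05, with a bar at the list median and a dashed line at the median of all 13267 tested genes. The cartilage list has a median of -0.68 in Tfam+/- against WT and of 1.33 in Tfam+/-Zbp1-/- against Tfam+/-.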

How the data were processed

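RNA sequencing libraries from untreated fibroblasts were grouped by the genotype in their labels. Reads were aligned to mm10 with STAR 2.6.1a in the RNAseq Alignment software (2.0.0), and RNA-seq Differential Expression (1.0.0) was used, per the series' design text. Salmon is also named, without a role, per the submitters' processing notes. The deposited table holds 1 normalized count per gene and library, a signal made by the authors with no value below 0. The sources used here do not say how it was scaled or counted or whether strand was used, so overlapping genes are uncertain. Depth in reads is unknown, and count models were not run.

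Values were tested as log2(normalized count + 1) where the mean was at least 10, with limma 3.58.1 in R 4.3.3 (lmFit, eBayes with a mean-variance trend), 4 genotypes fitted together, Benjamini-Hochberg adjustment and a threshold of 0.05. The code was tested on simulated data. Levels per kilobase used merged GENCODE M21 exons, and coordinates are RefSeq's for GRCm38.p6, 1-based. Promoter sequences are RefSeq's.

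Named genes were the 10 members, Tfam and Zbp1, up to 3 called genes of largest change per list and comparison, the 3 tested genes most correlated with each called member, and markers of other cell types. Genes called on a list but outside the 3 largest, and the low genes, were named after their values were seen. The members and lists were chosen with earlier results of these data known, as were the shared term and the 6-library fit. The settings also tried were a pseudocount of 5 or 0.1, testing every gene, a minimum mean of 50, library rescaling with trimmed means of M-values (30% of ratios and 5% of means removed at each end), a prior without trend, only the genotypes compared, a replicate block, the shared term, 6 libraries, and leaving out each library.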

Additional observations from a re-analysis of the deposited data

Results flagged for a closer look

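In the fit of all 8 libraries the interaction of Prg4 was past the threshold, at 2.66 ± 0.25 on the log2 scale (limma, adjusted p 0.0187). By that fit, the change with the Tfam+/- genotype differed between the backgrounds with and without Zbp1. Its size was 2.46 to 2.85 with 1 library left out, but its call was often lost. It did not pass with the replicate number as a block. Prg4 in Tfam+/- against WT did not pass (limma, adjusted p 0.19). Prg4 was lower in both Tfam+/- libraries than in both WT libraries, and higher in both Tfam+/-Zbp1-/- libraries than in both Zbp1-/- libraries. Groups of 2 libraries are too small for the check on single libraries far from their group.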

How the results depend on the processing

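Over 42 changes (7 genes, 6 comparisons) the alternatives gave 737 values, of which 656 kept their direction and side of the threshold, 38 newly passed it, 28 no longer passed it and 15 changed sign. The number of the 7 genes called moved most with the handling of the 2 libraries taken as shifted. With the shared term and in 6 libraries it was 4 and 3 in Tfam+/- against WT, 2 and 2 in Zbp1-/- against WT, 4 and 4 in Tfam+/-Zbp1-/- against WT, 5 and 5 against Tfam+/-, 4 and 4 against Zbp1-/-, and 3 and 3 in the interaction. In Tfam+/-Zbp1-/- against WT it was 2 after rescaling, beside 190 of all 13261 genes, and 2 with a prior without trend, beside 230 of all 13267. With only the genotypes compared it was 4, but 5935 of all 13267 genes were then called. Against Zbp1-/- it was 0 with only the genotypes compared, beside 1 of all 13267 genes. Leaving out 1 library gave 0 to 0 in Tfam+/- against WT, 0 to 1 in Zbp1-/- against WT, 0 to 2 in Tfam+/-Zbp1-/- against WT, 0 to 3 against Tfam+/-, 0 to 1 against Zbp1-/- and 0 to 1 in the interaction. Over all tested genes, the shared term and the 6 libraries likewise brought more calls, and most fits that leave out 1 library brought fewer. The cause was not tested, except that leaving out libraries leaves fewer samples.

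Signs changed only for changes not called from all 8 libraries, the largest of them 0.39 (Sox9 in the interaction). Rescaling turned Sox9 to -0.0130 in Zbp1-/- against WT and to -0.0585 in Tfam+/-Zbp1-/- against WT. The shared term and the 6 libraries turned Sox9 to -0.14 and -0.14 in the interaction, Runx2 to -0.0538 and -0.0859 and Spp1 to -0.12 and -0.12 against Zbp1-/-. The 6 libraries turned Runx2 to 0.0074 in Zbp1-/- against WT. With 1 library left out, the ranges that crossed 0 were -0.17 to 0.38 (Sox9) and -0.63 to 0.0074 (Runx2) in Zbp1-/- against WT, -0.20 to 0.13 (Acan) in Tfam+/-Zbp1-/- against WT, and -0.32 to 0.23 (Sox9), -0.0859 to 0.55 (Runx2) and -0.12 to 0.15 (Spp1) against Zbp1-/-. The cause was not tested.

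Same-numbered libraries of different genotypes did not deviate together (r of -0.70 to 0.06 over 6 pairs of genotypes), so the labels' numbers do not pair them. With the replicate number as a block, 0 of 7 genes were called in Tfam+/-Zbp1-/- against WT, 2 against Tfam+/-, 0 against Zbp1-/- and 0 in the interaction. Over all 13267 genes, 8, 351, 1 and 0 were called in these, so few genes of any kind passed outside the comparison with Tfam+/-. Prg4 was called against Tfam+/-. Its limma adjusted p was 0.0857 against WT, 0.188 against Zbp1-/- and 0.0900 in the interaction. Low levels limit Ibsp, Alpl and Sp7, whose values the pseudocount compresses.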
